A study of Mus musculus with 2 samples.

Results

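Semaphorins, ephrins, netrins and slits, with the receptors that read them, form the gene families known for steering growing axons. Their RNA was measured with Affymetrix GeneChip Mouse Genome 430 2.0 arrays in the ovaries of mice that were wild type or lacked the progesterone receptor (PR knockout), a transcription factor activated by progesterone and encoded by Pgr. Members were taken by gene symbol: those beginning with Sema3 to Sema7, Plxna to Plxnd, Epha or Ephb, Efna or Efnb, Robo, Ntn or Unc5a to Unc5d, the slits, Nrp1 and Nrp2. This gave 69 of the 18193 genes that had a probe set annotated to a single symbol, and where a gene had several, the one brightest on average over both arrays (in log2 signal) stood for it. Of the 69, Unc5cl and Plxna4os1 matched by spelling alone, the latter being an antisense transcript.

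Both genotypes were on a C57BL/6 background, were 24 to 28 days old and had the same hormone treatment. Mice were injected with PMSG (5 IU), a gonadotropin from pregnant mares that makes follicles grow, and 48 h later 5 IU of human chorionic gonadotropin (hCG), which triggers ovulation in the manner of luteinizing hormone. Ovaries were collected 11 h after hCG. In the labels the mutant mice are PR null, with no account of how Pgr was disrupted. The sources used here do not say how many animals each RNA came from. There was 1 array per genotype, so values are single measurements without replicates, no test could be made and there are no p-values. In whole ovaries, fewer cells of a type and less RNA per cell cannot be told apart.

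Semaphorins act on plexin receptors, and most of the secreted class 3 semaphorins also need a neuropilin as co-receptor. Ephrins stay attached to the cell surface, ephrin-A by a lipid anchor and ephrin-B by a membrane span, and they bind Eph receptor tyrosine kinases on a neighbouring cell, so that signals run into both cells. Slits act on Robo receptors, and netrins act on Dcc, neogenin and Unc5 receptors. Outside the nervous system these families set tissue boundaries and direct blood vessel growth, with ephrin-B2 known from arterial and EphB4 from venous endothelium.

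Signals are linear MAS5 intensities. The floor, taken as the least measurable signal, was each array's median after controls were set aside, 36.2 for wild type and 37.95 for knockout. Genes whose probe set reached it on 1 array or both were counted as measured. Differences are log2 signal of the knockout minus the wild type, with signals under the floor set to it, so a fold against such a signal is a lower bound, written "at least". Signals of different probe sets are on no common scale, and no gene's level is ranked against another's. Pgr read 36.5 in wild-type and 42.8 in knockout ovary by the brightest of its 3 probe sets, barely above the floors, and the others were under them, so the arrays gave no check of the genotype labels. Ovarian markers were present, with 6 of 6 granulosa and 7 of 7 oocyte markers measured, while 0 of 3 oviduct and 0 of 3 adipose markers reached the floor.

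The median difference of the guidance genes was small. The members at least 2-fold apart were Efnb2, Epha3 and Ephb6, the last measured on the knockout array only. All are ephrin or Eph genes, of which 4 ephrin-A, 3 ephrin-B, 4 EphA and 3 EphB genes were among the 46 measured members. Of the 69 genes, 46 were measured (66.7%, against 62.2% of all genes), 38 on both arrays, 4 on the wild-type array only and 4 on the knockout array only. Those 8 passed the floor only through the array where they are high, and each differed in that array's favour. Among the 46, 27 had higher (58.7%, against 57.7% of all measured genes) and 19 lower signal in the knockout, and the median log2 difference was 0.11 with quartiles of -0.30 and 0.31. Over the 11316 measured genes of the array the median was 0.06 with quartiles of -0.14 and 0.27. After removal of the trend with intensity, 23 guidance genes were higher and 23 lower, and 51.0% of all genes were higher.

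Only Efnb2 was at least 2-fold lower in the knockout among the measured members, or 2.17% of them, beside 1.72% of all measured genes. At least 2-fold higher were Epha3 and Ephb6, 4.35% of members beside 1.15% of all measured genes. Ephb6 was above the floor in the knockout only. Among genes measured on both arrays, 1 of 38 guidance genes was at least 2-fold lower and 1 higher, against 167 and 104 of 10633 genes. At the 1.5-fold threshold 5 members were lower (10.9%, against 4.75% of measured genes) and 6 higher (13.0%, against 6.54%). Of these, Epha4, Sema3d, Ephb6 and Sema6c were measured on 1 array only. On both arrays 3 of 38 guidance genes were lower and 4 higher at this threshold, against 485 and 649 of 10633 genes. Measured guidance genes were dimmer than the array as a whole, with a median brighter signal of 147 against 248. Of the 27 members with no signal of 200, 25.9% were at least 1.5-fold apart, against 14.6% of the 4875 such genes on the array. In the 19 members that reached 200 the share was 21.1%, against 8.76% of 6441 genes. These shares rest on 7 and 4 members, and the 7 include Epha4, Sema3d, Ephb6 and Sema6c, measured on 1 array only.

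**Figure D1:**
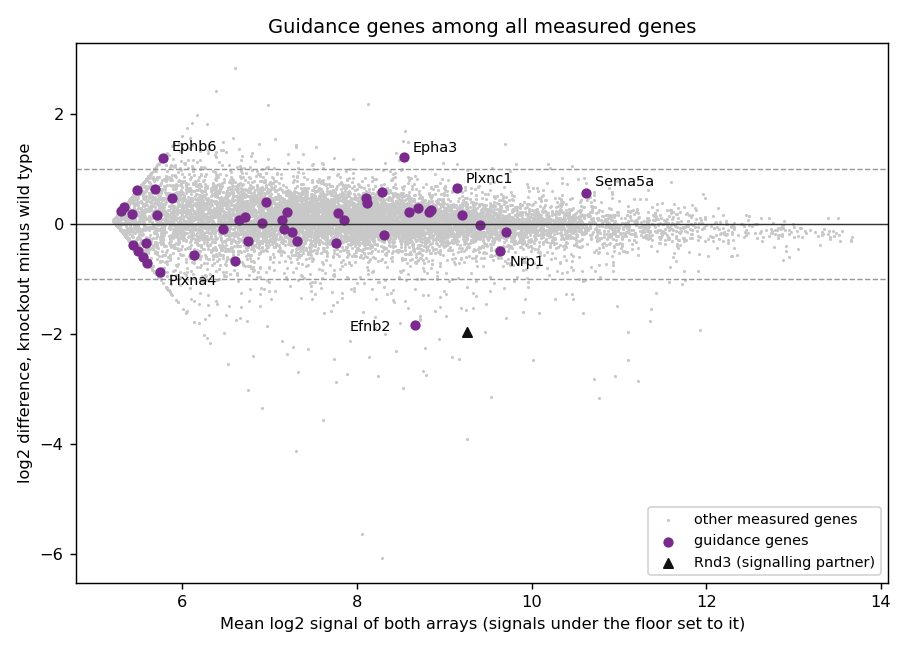
The log2 difference (knockout minus wild type) is plotted against the mean log2 signal of both arrays for every measured gene. Purple points are the 46 guidance genes, grey points the other measured genes, the triangle is Rnd3, and dashed lines mark 2-fold. Most guidance genes lie between the dashed lines, with Efnb2 at -1.84 and Epha3 and Ephb6 at 1.22 and 1.21 outside them.

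The ephrin-B ligand gene Efnb2 read 766 in wild-type ovary and 214 in knockout ovary, 3.57-fold lower in the knockout. Its 3 other probe sets ran the same way in signal: 422 against 102 (4.14-fold), 77.5 against 15.0 (at least 2.04-fold) and 36.7 against 24.2. The last pair lay at and under the floors and gives no fold. Of the 11316 measured genes, 46 had a lower log2 difference than Efnb2. Averaged over its 4 probe sets, the log2 difference of Efnb2 was -1.22 in place of -1.84. The other ephrin-B genes did not share this difference. Efnb1, an X-linked ephrin-B gene, gave 256 and 384, higher in the knockout by 0.59 on the log2 scale, and by 0.18 and 0.27 by its other probe sets. Efnb3 gave 54.3 and 42.7, 1.27-fold lower.

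Among the measured Eph receptors of the A class, only Epha3 was higher in the knockout. It read 243 in wild-type ovary and 568 in knockout ovary, 2.33-fold higher in the knockout. The other probe sets of Epha3 gave 182 and 532 (2.92-fold), 103 and 235 (2.27-fold), and 27.4 and 70.9 (at least 1.96-fold), so all 4 were higher in the knockout. Of the measured genes, 50 had a higher log2 difference than Epha3. Epha2, a receptor common in epithelia, gave 84.9 and 57.9, 1.47-fold lower. Epha4, which binds ephrins of both classes, gave 61.8 in wild-type ovary and, in the knockout, 26.7, a signal under the floor that makes it at least 1.63-fold lower. Its other measured probe set gave 43.9 and 15.2, the latter under the floor, at least 1.16-fold lower. The remaining 3 probe sets of Epha4 were under the floor on both arrays and give no direction. Epha7 gave 49.2 and 31.5, at least 1.30-fold lower. Epha4 and Epha7 passed the floor only in the wild type, which fixed their direction. That leaves Epha2 as the one lower EphA gene measured on both arrays. Epha1, Epha5, Epha6, Epha8 and Epha10 were under the floor on both arrays.

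Of the EphB receptor genes, Ephb4 was measured on both arrays, while Ephb3 and Ephb6 passed the floor only in the knockout, which fixed their direction. Each had a single probe set. Ephb6, whose product lacks kinase activity, gave 35.5 in the wild type, just under the floor, and 83.9 in the knockout, at least 2.32-fold higher. That difference stayed under 2-fold, at 0.65 on the log2 scale, when 50 was added to each signal, and with a floor at the 70th percentile Ephb6 was not measured. Ephb4, the main ephrin-B2 receptor of veins, gave 108 and 144, 1.33-fold higher. Ephb3 was at 23.9, under the floor, in the wild type and at 42.8 in the knockout, at least 1.18-fold higher. Ephb1 was under the floor in both, and Ephb2 was not analysed here. The ligand Efnb2 and its receptor Ephb4 thus had log2 differences of opposite sign, -1.84 and 0.41.

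Ephrin-A ligands showed smaller differences. Efna2 gave 123 and 76.9, a log2 difference of -0.67, and Efna5, a ligand of Epha3, gave 177 and 143, 1.24-fold lower. Efna1 gave 100.4 and 110.6, 1.10-fold higher, with 0.38 on the log2 scale by its other measured probe set. Efna4 was 1.13-fold higher at 49.6 and 55.8. The sign of Efna2 turned, to 0.06 on the log2 scale, with the 70th-percentile floor, which lay above its knockout signal. Efna3 was under the floor.

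The sequences upstream of 4 genes are shown because their differences were repeated by other probe sets: Efnb2 and Epha3, the semaphorin receptor gene Plxnc1, and Rnd3, a signalling partner described further on. They were chosen after their values were seen. Each run is the 250 bases before the annotated start, 5′ to 3′ on the gene's strand, from RefSeq on GRCm38.p6. Capitals mark GC boxes (GGGCGG or its reverse complement CCGCCC), motifs bound by Sp-family factors.
Efnb2 (chr8:8661243-8661492, minus strand): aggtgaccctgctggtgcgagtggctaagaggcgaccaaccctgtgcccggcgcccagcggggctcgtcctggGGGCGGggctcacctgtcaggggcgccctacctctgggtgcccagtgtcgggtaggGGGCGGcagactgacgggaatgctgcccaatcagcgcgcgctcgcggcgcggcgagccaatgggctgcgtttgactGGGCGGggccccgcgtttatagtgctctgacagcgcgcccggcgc
Epha3 (chr16:63864176-63864425, minus strand): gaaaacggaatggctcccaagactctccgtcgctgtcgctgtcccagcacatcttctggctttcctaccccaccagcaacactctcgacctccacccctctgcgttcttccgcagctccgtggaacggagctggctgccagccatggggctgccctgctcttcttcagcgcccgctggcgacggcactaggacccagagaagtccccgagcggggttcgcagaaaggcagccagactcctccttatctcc
Plxnc1 (chr10:94944846-94945095, minus strand): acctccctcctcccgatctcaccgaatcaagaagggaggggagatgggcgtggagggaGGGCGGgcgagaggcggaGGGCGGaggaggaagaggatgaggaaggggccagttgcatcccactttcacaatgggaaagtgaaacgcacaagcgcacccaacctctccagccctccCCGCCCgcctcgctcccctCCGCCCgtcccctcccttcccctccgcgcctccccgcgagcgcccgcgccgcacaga
Rnd3 (chr2:51149112-51149361, minus strand): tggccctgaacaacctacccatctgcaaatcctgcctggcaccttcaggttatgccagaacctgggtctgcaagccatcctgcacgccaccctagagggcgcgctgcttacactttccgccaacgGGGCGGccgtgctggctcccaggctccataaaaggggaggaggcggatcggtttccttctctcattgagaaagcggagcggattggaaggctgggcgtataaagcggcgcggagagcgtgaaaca

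Efnb2 carried 3 GC boxes in this window, whose first bases lay 177, 121 and 45 bases before the start. Plxnc1 carried 4 and Rnd3 carried 1, at 125 bases before the start, while Epha3 carried 0. A half-site of the hormone response element that steroid receptors such as PR bind (AGAACA, or TGTTCT on the other strand) was found in 0 of these 4 windows, as were the cAMP response element (TGACGTCA) and the AP-1 site (TGANTCA). GC content was 72.0% for Efnb2, 68.8% for Plxnc1, 62.8% for Epha3 and 60.0% for Rnd3. All promoter counts that follow leave out 1 chromosome. Promoters of 59 of the 69 guidance genes were counted, 75 in all with alternative starts. GC boxes stood in 72.0% of these 75, in 48.3% of the 18109 promoters of genes on the array and in 32.7% of all 32851. The hormone half-site stood in 9.33%, 12.6% and 16.1% in the same order, the cAMP response element in 1.33%, 2.12% and 1.55%, and the AP-1 site in 4.0%, 5.62% and 6.75%. These are matches of letters in a short window and are given as a description.

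**Figure D2:**
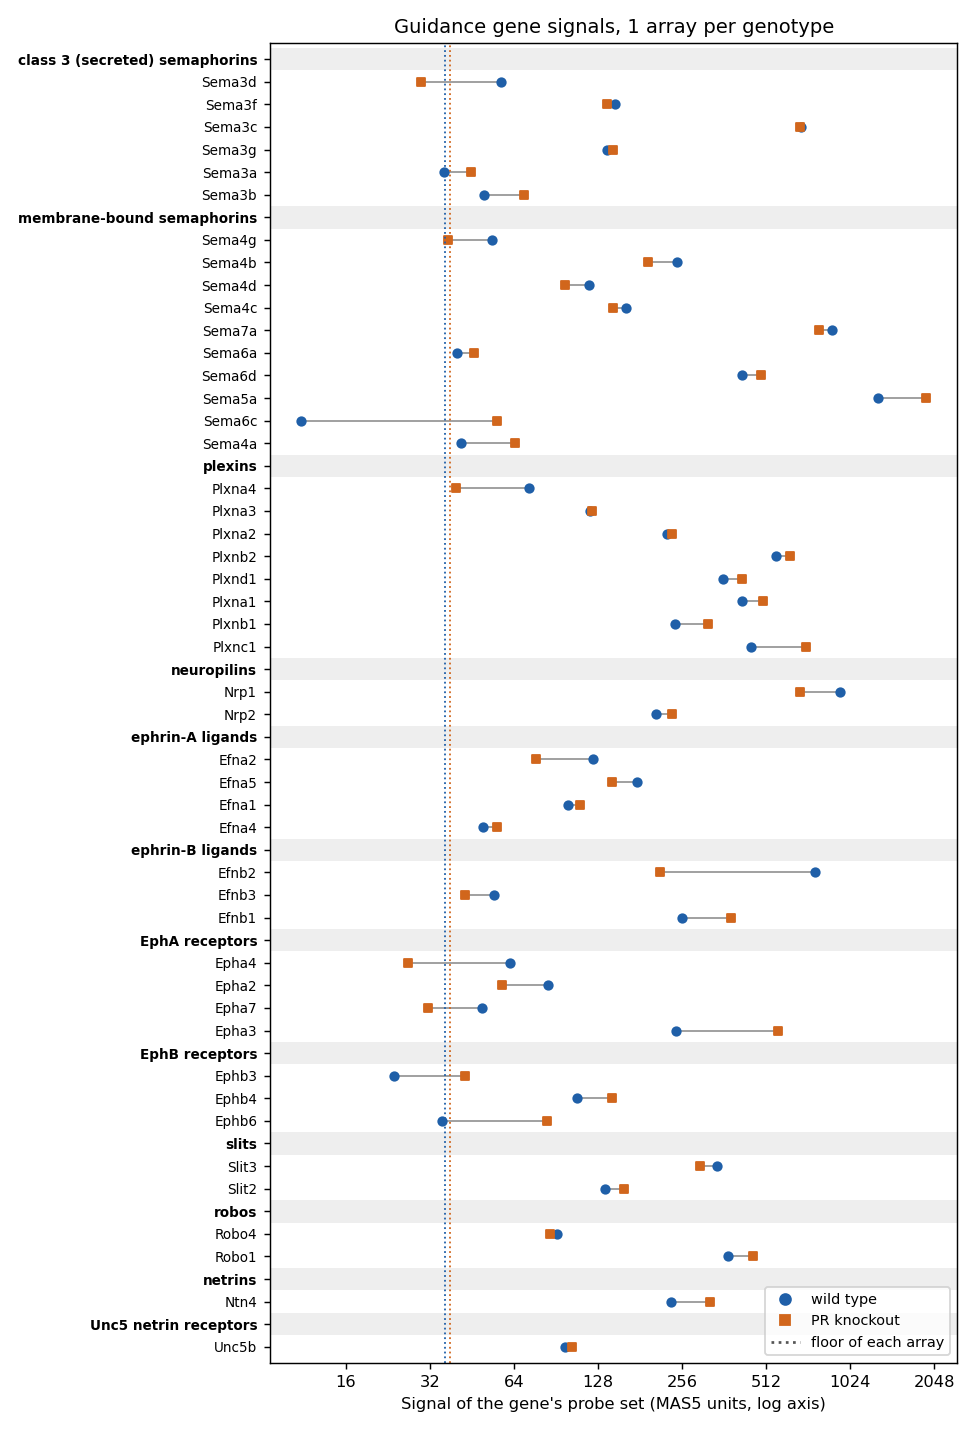
Signals of the 46 measured guidance genes are plotted by class on a log axis, with circles for the wild-type and squares for the knockout array, and dotted lines for the floor of each array. The pairs set farthest apart above the floors are those of Efnb2 (766 and 214) and Epha3 (243 and 568), while Sema3a, Sema6c, Ephb3 and Ephb6 start under the wild-type floor.

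Secreted class 3 semaphorins showed no common direction, with 3 of 6 measured genes higher and 3 lower in the knockout and 0 at least 2-fold apart. Their median log2 difference was 0.03. Sema3c, whose product guides neural crest and endothelial cells, gave 683 and 681, and its other probe set gave 138 and 102, 1.35-fold lower. Sema3f, an inhibitor of vessel and lymphatic growth, gave 148 and 139, and Sema3g, made by endothelium, gave 138 and 146. Sema3b was 1.39-fold higher at 50.1 and 69.9. Sema3d gave 57.7 in wild-type ovary against 29.9, under the floor, in the mutant, at least 1.52-fold lower. Sema3a, a repellent also called collapsin, was just under the floor in the wild type (36.0) and at 44.9 in the knockout, at least 1.24-fold higher. Sema3e was under the floor.

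Of the 10 measured membrane-bound semaphorins 5 were higher and 5 lower in the knockout, and 0 were at least 2-fold apart. Sema5a, which carries thrombospondin-type repeats, gave 1293 and 1920, 1.49-fold higher, and its other measured probe sets gave 0.62 and 0.34 on the log2 scale. Sema7a, a lipid-anchored semaphorin that binds plexin C1 and integrins, gave 882 and 796, 1.11-fold lower. Sema6d gave 422 and 491 by its brightest probe set, but its 4 measured probe sets ran from -0.31 to 0.57 on the log2 scale. Sema4a was 1.55-fold higher at 41.5 and 64.5, and 0.17 on the log2 scale by its other probe set. Sema6c was at 11.1, under the floor, in the wild type and at 55.6 in the knockout, at least 1.53-fold higher, and its 2 other probe sets were under the floor on both arrays. The measured Sema4 genes other than Sema4a lay lower: Sema4b gave 246 and 193, Sema4d, a ligand of plexin B1, gave 119 and 97.3, and Sema4c gave 161 and 145. Sema4g gave 53.3 and 37.1, at least 1.40-fold lower, the knockout signal lying just under the floor. Sema6a gave 40.2 and 45.9. Sema4f, Sema5b and Sema6b were under the floor.

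Plexins, the semaphorin receptors, lay mostly higher in the knockout by small amounts, 7 of 8 measured, beside 57.7% of all measured genes, with a median log2 difference of 0.20. The count was 6 of 8 after median centring or quantile normalization, beside 48.2% and 54.7% of all genes, and 5 of 8 after removal of the intensity trend, beside 51.0%. Plxnc1, the receptor of Sema7a, gave 451 and 711, 1.58-fold higher, and its 5 measured probe sets were all higher, from 0.44 to 1.17 on the log2 scale. Sema7a itself differed by -0.15. Plxnb1 gave 243 and 318, 1.31-fold higher, with 0.14 by its other probe set. Plxna1 gave 420 and 502, Plxnd1, the semaphorin receptor of endothelium, gave 358 and 420, and Plxnb2 gave 557 and 623. Plxna2 gave 226 and 237 by its brightest probe set, while 2 dimmer ones gave 0.53 and 0.77 on the log2 scale. Plxna3 gave 120 and 122. Plxna4 was the exception, at 72.4 and 39.8, 1.82-fold lower by its single measured probe set, and that knockout signal was close to the floor. Plxnb3 was under the floor.

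The neuropilins, co-receptors of class 3 semaphorins and of VEGF, differed in direction. Nrp1 gave 944 and 678, 1.39-fold lower in the knockout. Its 3 other probe sets were lower too, by smaller amounts, at 517 and 406, 297 and 272, and 308 and 297. Nrp2 gave 206 and 237, 1.15-fold higher, but its measured probe sets ran from -0.28 to 0.45 on the log2 scale and give no single direction.

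By their brightest probe sets, slit and Robo genes differed by at most 1.23-fold. The ligand gene Slit3 gave 342 and 297, 1.15-fold lower, and Slit2 gave 136 and 159, 1.17-fold higher, with -0.19 on the log2 scale by its other measured probe set. Their receptor Robo1 gave 374 and 460, 1.23-fold higher, and Robo4, the endothelial Robo, gave 91.3 and 86.0. Slit1, Robo2 and Robo3 were under the floor.

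Of the netrins only Ntn4, a basement membrane netrin, was measured, at 234 and 323, 1.38-fold higher in the knockout. Its dimmer probe set gave 37.8 and 83.7, 2.22-fold higher. Of the Unc5 receptors only Unc5b, known from vessel sprouts, was measured, at 98.0 and 104. Ntn1, Ntn3, Ntn5, Unc5a, Unc5c and Unc5d were under the floor, as was the netrin receptor gene Dcc, at 12.7 and 18.8. Neo1, which encodes the other netrin and repulsive guidance molecule receptor, neogenin, gave 283 and 411, 1.45-fold higher, and all 4 of its measured probe sets were higher, by 0.29 to 1.25 in log2.

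The 23 guidance genes under the floor on both arrays comprised 9 ligands, 12 receptors and the 2 genes matched by spelling. Their brighter signals ran from 2.00 to 36.5. Just under the floors were Robo2 (31.9 and 36.5) and Ntn1 (23.6 and 34.7), and just above were Sema3a, Ephb3 and Sema6a. For these 23 genes the arrays give no difference.

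The probe sets of a gene give the one spread that these arrays hold. Among 17 guidance genes with several probe sets above both floors, log2 differences of one gene had an SD of 0.26, or 1.19-fold, and over 4771 genes of the array it was 0.25. It leaves out the spread between animals. Of the 46 measured guidance genes, 27 differed by more than the SD over all genes and 19 by less. The smaller differences made up 41.3% of guidance genes and 58.3% of all measured genes. The SD rests on probe sets above both floors, but these shares take in genes measured on 1 array only, whose direction the floor fixed. Those were 4 wild-type-only and 4 knockout-only of the 46, against 303 and 380 of 11316 genes. No such share was taken without them. Of the 20 guidance genes with 2 or more measured probe sets, 15 had all of them on one side, 12 higher and 3 lower, which is 75%, against 57.3% of 5271 genes on the array. Epha4 is among the 3 lower ones by probe sets measured on the wild-type array only, which fixed their direction. Efnb2 is not among the 15 because its dimmest probe set, set to the floors, came out at 0.05.

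**Figure D3:**
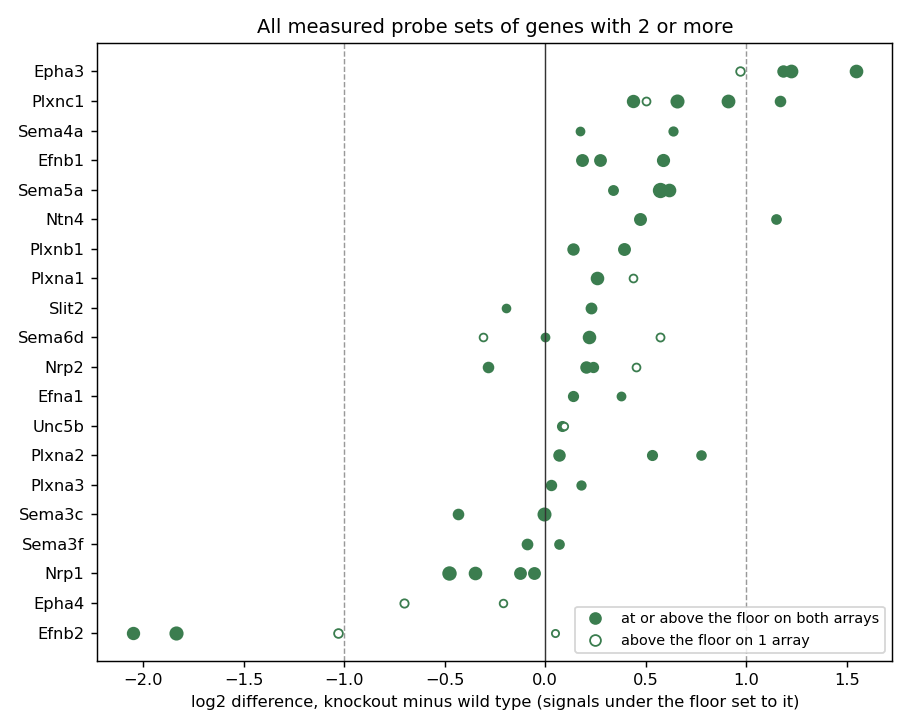
Each point is a measured probe set of the 20 guidance genes that had 2 or more, placed by its log2 difference (knockout minus wild type); larger points have brighter signals, and open points reached the floor on 1 array only. All points of Epha3 and Plxnc1 lie above 0, the brighter points of Efnb2 lie near -2, and those of Nrp2 and Sema6d lie on both sides of 0.

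Ligands and receptors were set side by side. Of 26 measured ligand genes 13 were higher and 13 lower in the knockout, with a median log2 difference of 0.03. Of 20 measured receptor genes 14 were higher and 6 lower (70% higher, against 57.7% of all measured genes), with a median of 0.18. Receptors were higher in 13 of 20 (65.0%) after median centring or quantile normalization, against 48.2% and 54.7% of all genes, and in 11 of 20 (55.0%) after removal of the intensity trend, against 51.0%. On both arrays 22 ligand and 16 receptor genes were measured. Of each, 2 more passed the floor in the wild type only and 2 in the knockout only, which fixed their direction. The difference between the medians of ligands and receptors was not tested.

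Of the genes that carry guidance signals into the cell, 91.4% of those measured lay within 1.5-fold, against 76.1% of the guidance genes and 88.7% of all genes, and the exceptions past 2-fold were Rnd3 and Met. Among genes measured on both arrays, 81.6% of 38 guidance genes and 89.3% of 10633 genes lay within 1.5-fold, and 54 partners were measured on both. Of 68 signalling partners with a probe set 58 were measured, 32 higher and 26 lower in the knockout, with a median log2 difference of 0.03. At least 2-fold lower were 2 of the 58, and 0 were at least 2-fold higher, beside 1.72% and 1.15% of all measured genes. Rnd3 gave 1203 and 311, 3.87-fold lower, and its other probe set gave 649 and 176, a log2 difference of -1.88. Of all measured genes, 42 had a lower log2 difference than Rnd3. Its relative Rnd2 went the other way, at 250 and 469, 1.88-fold higher by a single probe set, and Rnd1 was under the floor. Met, the hepatocyte growth factor receptor that can be recruited by B plexins, gave 114 and 48.1, 2.37-fold lower by a single probe set. It was under 2-fold when 50 was added to each signal, with a log2 difference of -0.74, and was not measured with the 70th-percentile floor.

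The remaining partners stayed within 2-fold. Of 20 measured Eph and ephrin partners, 20 lay within 1.5-fold, with a median of 0.05, the farthest being the Rac-inactivating gene Chn1 at 51.5 and 75.5. Of 12 slit and robo partners 12 lay within 1.5-fold, with a median of -0.10, the farthest being Srgap3 at 165 and 118. Among 6 measured netrin co-receptors and repulsive guidance molecules the median was 0.18, the farthest being Rgma at 38.6 and 60.2. The 20 measured semaphorin and plexin partners had a median of 0.01, and 16 of them lay within 1.5-fold.

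Markers of the cell types that carry these genes were compared on the same arrays. Endothelial markers were higher in 6 of 8 genes, with a median log2 difference of 0.41. Their signals summed to 1280 in wild-type and 1605 in knockout ovary. Of the guidance genes described above as endothelial or vascular, Efnb2, Nrp1, Robo4 and Sema3f were lower in the knockout. Ephb4, Plxnd1, Nrp2, Sema3g and Unc5b were higher, Nrp2 without a single direction over its probe sets. Robo4 and Sema3f, at -0.09 each, and Sema3g and Unc5b, at 0.075 and 0.08, were close to level. Sema3c, at -0.01, was nearly level. Of the 8 markers, Kdr and Cdh5 differed by -0.07 and -0.06, and Emcn, Pecam1, Tek, Cldn5, Vwf and Tie1 lay from 0.29 to 0.95. Sums add probe sets that share no scale and follow the brightest of them. Mural markers had a median of 0.05 over 7 genes and summed signals of 11527 and 11318. Stroma and fibroblast markers had a median of 0.28 over 6 genes and summed signals of 13273 and 15230, and ran from -0.41 (Pdgfra) and -0.01 (Col3a1) to 0.84 (Lum) and 1.46 (Tcf21). Granulosa markers had a median of 0.27 over 6 genes and sums of 13251 and 14067. Theca and interstitial markers had a median of -0.29 over 4 genes and sums of 20601 and 17716. They had no single direction, with Star at -0.55, Cyp17a1 at -0.47, Cyp11a1 at -0.12 and Ptch1 at 0.975. Oocyte markers, 7 of 7 higher, had a median of 0.15 and sums of 2251 and 2509. Surface epithelium markers had a median of -0.62 over 5 genes and sums of 1083 and 669.6. Krt8 and Krt18 lay at -1.18 and -1.04 and Krt19 at -0.62, while Upk3b lay at -0.14 and Lgals7 went the other way, at 0.33. Leukocyte markers had a median of -0.19 over 5 measured of 8, while the sums over all 8 were 625 and 671. Of 8 nerve and glia markers 6 were under the floor on both arrays, the neurofilament genes and Sox10 among them, and Tubb3 gave 101 and 88.5. The part of these cell types in the differences of guidance genes was not tested.

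**Figure D4:**
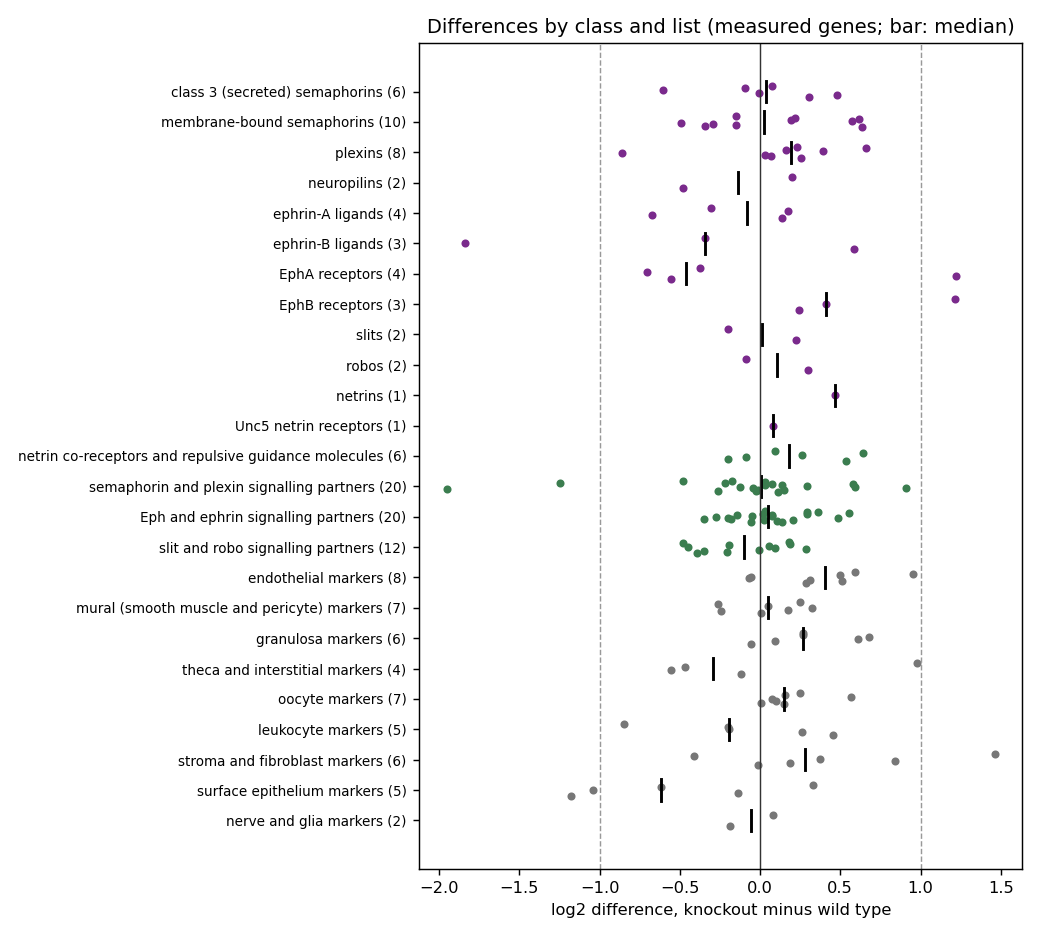
Log2 differences (knockout minus wild type) of measured genes are shown for the 12 guidance classes (purple), the 4 lists of signalling partners (green) and the cell type marker lists (grey), with the number of genes in brackets, a black bar at each median and dashed lines at 2-fold. Class medians run from -0.46 (EphA receptors, 4 genes, 2 of them measured on the wild-type array only) to 0.47 (netrins, Ntn4 alone). Efnb2, Epha3 and Ephb6 lie outside the dashed lines, as do Rnd3 and Met among the partners.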

How the data were processed

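RNA from 1 wild-type and 1 PR knockout ovary sample was hybridized to 1 array each. Per the labels' protocols, biotin-labelled antisense RNA was made from 100 ng of total RNA with the Affymetrix 3′ Express kit. Each probe set has 1 deposited intensity on a linear scale, computed by the authors with MAS5 in Affymetrix Expression Console version 1, per the submitters' processing notes. The mean after trimming 2% at each end was 150.0 on both arrays. Signals under the floor were given no order.

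Of 45101 probe sets 64 controls were set aside. A single symbol in the platform annotation was carried by 34945, several by 932 and none by 9160, and only the first were used. Log2 differences were taken after flooring each array at its median. The calculation was tried on simulated data in which the changed genes all lay well above both floors and were shifted by more than 2-fold. That trial does not cover genes near the floor. Alternatives were a 70th-percentile floor, no floor (signals at least 1), a pseudocount of 50, median centring, quantile normalization, loess with a span of 0.3 (statsmodels 0.14.6), the mean over probe sets, only probe sets not ending in _x_at, _s_at or _a_at, and a 1.5-fold threshold. Named were members at least 2-fold apart and, in each class, the brightest and the 2 largest differences each way, with every measured member of classes of up to 5 and members on either side of the floor, and in each partner list those at least 2-fold apart and the largest difference. Further genes were named after their values were seen. Members and lists were chosen with earlier results of these data known. The number of arrays limits the precision.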

Additional observations from a re-analysis of the deposited data

How the results depend on the processing

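No paired analysis was possible because each genotype had 1 array. Without replicates, a log2 difference or median was taken to have moved when it shifted by 0.25 or more, the within-gene SD between probe sets. Of 46 measured guidance genes, 40 kept their sign and 34 moved by less than this under each of the 8 alternatives for the log2 difference that could be computed for them. These counts are partly fixed in advance. Removing the floor cannot change a gene above both floors, and averaging probe sets cannot change a gene with 1 measured probe set. Signs turned for Efna2, Plxna2, Plxna3, Sema3c, Sema3g and Unc5b. The median over guidance genes stayed between 0.01 and 0.18. Efnb2 was at least 2-fold lower and Epha3 at least 2-fold higher under all alternatives of floor, scaling, pseudocount and probe set. Guidance genes at least 2-fold lower numbered 6 of 69 with no floor, beside 1777 of 18193 genes, in place of 1 of 46. At least 1.5-fold lower were 5 of 46, beside 538 of 11316 genes. Guidance genes at least 2-fold higher numbered 1 of 26 with the 70th-percentile floor, 1 of 46 with the pseudocount, and 5 of 69 with no floor, in place of 2. Beside these stood 35 of 8160, 29 of 11316 and 1361 of 18193 genes. At least 1.5-fold higher were 6 of 46, beside 740 of 11316 genes. All genes at least 2-fold apart numbered 325, and 163, 157 and 3138 in the same order, and 1278 were at least 1.5-fold apart. Their split of 130 higher and 195 lower became 92 and 225 after median centring and 86 and 229 without the loess trend. The split was 35 and 128 with the 70th-percentile floor, 29 and 128 with the pseudocount, 1361 and 1777 with no floor, and 740 and 538 for genes at least 1.5-fold apart. With the 70th-percentile floor, which left 26 guidance genes, the median of the ephrin-B ligands was -0.63 and that of the EphA receptors, then Epha3 alone, 1.22. The median of the netrins (Ntn4) was 0.81 with the mean over probe sets, and that of the EphB receptors 0.73 without Ephb4, whose probe set ends in _a_at. The EphB median then rested on Ephb3 and Ephb6, measured on the knockout array only, which fixed its direction. Signals near the floor limit the dim genes: a floored signal gives only a bound.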
